A study of Homo sapiens with 12 samples.

Results

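Heat shock proteins and chaperones were followed in A431 and HSC-1, 2 human cell lines from squamous cell carcinoma of the skin, after the mTOR inhibitor everolimus. The genes were those with a named probe set whose symbol begins with HSPA, HSPB, HSPD, HSPE, HSPH, HSP90, DNAJA, DNAJB or DNAJC, or that encode a subunit of the chaperonin TRiC, without pseudogenes, antisense RNAs and the genes HSPBAP1, HSPBP1 and HSPB11. The rule found 17 genes of 14884 with a named probe set, namely 11 HSPA genes, 4 HSPB symbols, HSPD1 and HSPH1. Of these, 16 encode proteins and 1, HSPB2-C11orf52, is a noncoding read-through transcript. Of the 81 protein-coding genes that the symbol rule takes in the gene table, the other 65, among them all HSP90, J protein and TRiC genes and HSPA5, HSPA8 and HSPE1, are not analysed here.

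RNA was measured on 12 Affymetrix arrays, 3 for each of 4 groups: A431 with everolimus, A431 with the vehicle DMSO, HSC-1 with everolimus and HSC-1 with DMSO. The drug, which resembles rapamycin and acts on mTOR complex 1, was given at 100 nM, and both treatments lasted 72 h. The labels name serum at 10 or 20% without saying which line received which, and they leave unsaid if a group's arrays stem from separate cultures, so the p-values reflect a spread between arrays that may be technical. Values are log2 levels from RMA, in which 1 unit is a 2-fold step.

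Within a group, arrays had correlations of 0.989 to 0.992, and array medians lay between 4.34 and 4.39. All 7 named keratinocyte markers (KRT5, KRT14, KRT16, SFN, DSP, PKP1 and EGFR) lay above the array median on all 12 arrays. Of the markers of other cell types, 0 of 2 for fibroblasts, 1 of 4 for melanocytes (MITF), 1 of 2 for leukocytes (LST1) and 0 of 3 for endothelium did so. Testing was limited to the 10613 genes whose level exceeded the array's median on 3 or more of the 12 arrays. Of the 17 chaperone genes, 15 were tested and 2, the small heat shock proteins HSPB3 and HSPB8, were not. The 15 include 13 that lay above the median on all 12 arrays. HSPA6 did so on 3 arrays and HSPB2-C11orf52 on 4.

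Chaperones bind unfolded stretches of proteins and help them fold, refold or reach degradation. HSP70 proteins, encoded by the HSPA genes, bind and release clients in an ATP-driven cycle that J proteins start and that HSP110 proteins (HSPH1, HSPA4 and HSPA4L) help to reset by exchanging nucleotide. HSPD1 forms the folding chamber of mitochondria, and small heat shock proteins such as HSPB1 hold unfolding proteins in solution. Many of these genes are induced by heat shock factor, which binds inverted repeats of GAA upstream of them, while mTOR complex 1 promotes protein synthesis and so the supply of chaperone clients.

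The stretches before the start sites of 4 chaperone genes that fell in HSC-1 are shown because they differ in whether they hold such repeats. They are RefSeq sequences of GRCh38.p14, each 250 bases long and ending just before the annotated start. Capitals mark the pair motifs GAANNTTC and TTCNNGAA, each of which reads the same on both strands, and overlapping matches run together.
HSPD1: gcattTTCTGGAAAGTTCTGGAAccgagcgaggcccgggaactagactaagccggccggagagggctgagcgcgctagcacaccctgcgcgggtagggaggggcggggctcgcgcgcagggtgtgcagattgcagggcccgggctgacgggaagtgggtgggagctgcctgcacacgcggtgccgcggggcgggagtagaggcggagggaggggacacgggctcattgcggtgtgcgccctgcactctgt
HSPH1: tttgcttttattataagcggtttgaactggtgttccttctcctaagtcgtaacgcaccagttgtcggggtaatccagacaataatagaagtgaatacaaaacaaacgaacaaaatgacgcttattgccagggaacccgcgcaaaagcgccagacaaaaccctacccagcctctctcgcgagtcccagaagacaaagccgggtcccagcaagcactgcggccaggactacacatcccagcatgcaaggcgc
HSPB1: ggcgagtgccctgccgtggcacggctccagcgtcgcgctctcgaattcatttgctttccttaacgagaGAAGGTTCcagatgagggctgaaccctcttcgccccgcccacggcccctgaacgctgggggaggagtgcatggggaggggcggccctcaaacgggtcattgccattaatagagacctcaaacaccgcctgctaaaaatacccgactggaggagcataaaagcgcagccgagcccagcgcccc
HSPA1A: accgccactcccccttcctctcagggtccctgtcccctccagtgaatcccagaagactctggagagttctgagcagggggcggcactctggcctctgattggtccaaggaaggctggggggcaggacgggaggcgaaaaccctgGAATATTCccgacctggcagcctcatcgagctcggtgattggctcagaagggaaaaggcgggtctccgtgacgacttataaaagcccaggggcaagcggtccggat

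The HSPD1 stretch (chr2:197499841-197500090, minus strand) holds 3 overlapping pairs from 245 bases before the start, which together make a run of alternating repeats. HSPB1 (chr7:76302423-76302672, plus strand) has 1 pair at 182 bases and HSPA1A (chr6:31815293-31815542, plus strand) has 1 at 106 bases before the start. The HSPH1 stretch (chr13:31162389-31162638, minus strand) has no match, which says only that these letters are not in this window. A second window of HSPD1, at another annotated start, also has none.

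For comparison, 60 bases around the motifs of 2 more stress-inducible HSP70 genes are shown, from GRCh38.p14 and with the same capitals. HSPA1B is the near-identical neighbour of HSPA1A, and HSPA6 encodes an HSP70 that cells make mainly under severe heat.
HSPA1B: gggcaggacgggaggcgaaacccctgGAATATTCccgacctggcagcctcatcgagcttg
HSPA6: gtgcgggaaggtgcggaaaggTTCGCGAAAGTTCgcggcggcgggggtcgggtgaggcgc

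The HSPA1B stretch is chr6:31827607-31827666 and the HSPA6 stretch chr1:161524445-161524504, both on the plus strand. HSPA6 has a further pair at 180 bases before the start, outside the stretch shown. Over windows of 300 bases (250 before and 50 after each start), 14 of the 17 genes had an entry, and 10 of the 14 had at least 1 pair in a window. Among all 27305 genes with a window the share was 16.2%. The windows of HSPA1A and HSPA1L, which lie head to head, overlap by 241 bases and share 1 match. Triplets, a pair with a further repeat (GAANNTTC then NNGAA, or TTCNNGAA then NNTTC), were in windows of 2 of the 14, HSPD1 and HSPA6, against 0.608% of all genes. Of the genes with a window that fell in HSC-1, HSPD1, HSPB1, HSPA1A, HSPA1B and HSPA9 had a pair, and HSPH1 and HSPA4 had none. Of those that did not pass or were not tested, HSPA1L, HSPA4L, HSPA6, HSPB3 and HSPB8 had a pair, and HSPA2 and HSPA12A had none. A link between pairs and falls was not tested.

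In HSC-1, everolimus lowered 8 of the 15 tested chaperone genes and raised 0, with 7 not past the test. They were HSPH1, HSPD1, HSPA14, HSPA4, HSPA1B, HSPB1, HSPA9 and HSPA1A. The share of 53.3% stands beside 18.6% of all genes called in this comparison, 11.3% lower and 7.34% higher. The median log2 difference was -0.22 over the 15 genes and -0.02 over all 10613. All 8 falls were small, from 1.15-fold to 1.31-fold, and 0 of them reached 1.5-fold. All 8 genes lay above the array median on all 12 arrays. Of the 7 keratinocyte markers, 2 rose and 2 fell in HSC-1 and 3 fell in A431 with everolimus, and their part in these results was not tested. On bulk arrays, fewer cells of a type and less RNA per cell cannot be told apart, and RMA places arrays on a common scale, so shifts in a cell's total RNA are not visible.

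The HSP110 exchange factors were led by HSPH1 (probe set 16777896). Its levels were 10.11, 10.14 and 10.01 in HSC-1 with everolimus, against 10.53, 10.47 and 10.43 in HSC-1 with DMSO. All 3 everolimus arrays lay below all 3 DMSO arrays. On the log2 scale HSPH1 fell by 0.39 ± 0.05 (SE), a 1.31-fold drop (limma adjusted p = 1.11e-05). In A431 the levels were 8.93, 8.99 and 9.01 with everolimus and 8.87, 8.85 and 8.99 with DMSO, and the groups overlapped. HSPA4, the second HSP110 protein, had 8.58, 8.51 and 8.48 in HSC-1 with everolimus, against 8.83, 8.81 and 8.73 with DMSO, a fall by 0.27 ± 0.05 on the log2 scale (limma adjusted p = 0.00182). The third, HSPA4L, differed by -0.08 ± 0.06 in HSC-1 and did not pass (95% interval -0.21 to 0.06). Its HSC-1 levels were 8.70, 8.69 and 8.45 with everolimus and 8.68, 8.68 and 8.72 with DMSO, so that 1 everolimus array lay apart from the other 2.

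The mitochondrial chaperones HSPD1 and HSPA9 both fell in HSC-1. HSPD1 (16906962) had levels of 8.46, 8.43 and 8.35 with everolimus, against 8.79, 8.84 and 8.72 with DMSO. The groups did not overlap, and HSPD1 fell by 0.37 ± 0.06, a 1.29-fold drop (limma adjusted p = 0.000179). In A431, HSPD1 had 8.45, 8.42 and 8.50 with everolimus, against 8.41, 8.38 and 8.18 with DMSO. There the everolimus arrays all lay above the DMSO arrays, by 0.13 ± 0.06, which did not pass (limma adjusted p = 0.211, unadjusted p = 0.0347). HSPA9, the HSP70 that pulls imported proteins into mitochondria, had 10.38, 10.35 and 10.31 in HSC-1 with everolimus, against 10.58, 10.59 and 10.52 with DMSO, a fall by 0.22 ± 0.04 (limma adjusted p = 0.000717). Its A431 difference was -0.05 ± 0.04 (95% interval -0.13 to 0.03).

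Among the other HSP70 genes, HSPA14 had the largest fall in HSC-1. HSPA14, a ribosome-bound HSP70 that works on chains as they are made, had levels of 6.50, 6.55 and 6.34 with everolimus, against 6.74, 6.87 and 6.82 with DMSO. No array overlapped between the groups, and HSPA14 fell by 0.35 ± 0.07, a 1.28-fold drop (limma adjusted p = 0.0024). In A431 its difference was 0.04 ± 0.07 (95% interval -0.12 to 0.19). HSPA1B and HSPA1A, the stress-inducible cytosolic HSP70s, fell by 0.23 ± 0.03 (limma adjusted p = 4.93e-05) and by 0.20 ± 0.03 (limma adjusted p = 0.000146) in HSC-1. HSPA1B levels were 10.72, 10.69 and 10.75 with everolimus, against 10.95, 10.92 and 10.97 with DMSO, and HSPA1A levels were 10.84, 10.82 and 10.88 with everolimus, against 11.06, 11.05 and 11.03 with DMSO. Neither gene had overlapping groups.

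These 2 genes code for nearly the same protein, and their probe sets cannot be read as separate signals. Of the 5 HSPA1A probe sets, 3 held identical values on every array. Over the 5 HSPA1A probe sets the HSC-1 difference ran from -0.21 to -0.20, and over the 5 of HSPA1B from -0.23 to -0.19. Counted as 1 gene, they leave 7 falls among 14 genes. Their neighbour HSPA1L, an HSP70 made mainly in testis, had a difference of -0.06 ± 0.11 in HSC-1, and its 5 probe sets ran from -0.06 to 0.05.

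HSPA2, an HSP70 with a known role in sperm formation, had differences of opposite sign in the 2 lines, and neither passed. Its levels were 6.91, 6.79 and 6.92 in HSC-1 with everolimus, against 7.01, 7.04 and 7.22 with DMSO, a difference of -0.22 ± 0.08 (limma adjusted p = 0.0517). Across 22 alternative settings that p ran from 0.0225 to 0.229, and 8 settings put it under 0.05, among them the fits without A431 everolimus replicate 1 (0.0312) or 3 (0.0377). In A431 the levels were 7.77, 7.97 and 8.08 with everolimus, against 7.71, 7.76 and 7.83 with DMSO, a difference of 0.18 ± 0.08 (limma adjusted p = 0.194). The heat-induced HSPA6 and the divergent HSP70s HSPA12A and HSPA12B had HSC-1 differences of -0.0044 ± 0.14, -0.07 ± 0.09 and 0.06 ± 0.10. The interval for HSPA6 was wide (-0.30 to 0.29), and all 6 HSC-1 arrays had it below their median.

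HSPB1 was the 1 chaperone gene of 15 that fell in A431, where 0 rose and 14 did not pass. The share of 6.67% stands beside 6.73% of all genes called in this comparison, 4.33% lower and 2.39% higher. HSPB1 (17047504), the small heat shock protein HSP27, had levels of 11.28, 11.23 and 11.22 in A431 with everolimus, against 11.67, 11.63 and 11.61 with DMSO. The groups lay far apart for their spread, and HSPB1 fell by 0.39 ± 0.03, a 1.31-fold drop (limma adjusted p = 5.03e-07). In HSC-1 the levels were 11.23, 11.20 and 11.20 with everolimus, against 11.41, 11.47 and 11.42 with DMSO, a fall by 0.22 ± 0.03 (limma adjusted p = 7.56e-05). Under everolimus the means were 11.21 ± 0.01 in HSC-1 and 11.24 ± 0.03 in A431 (SD, n = 3 each). HSPB1 was the 1 gene past the test in both lines, and it passed under all 22 alternatives in each.

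The small heat shock proteins with low signal were not tested. HSPB8, which works with BAG3 in clearing misfolded proteins, had 3.45, 3.76 and 3.63 in A431 with everolimus, 4.04, 3.87 and 3.82 in A431 with DMSO, 4.27, 4.29 and 4.28 in HSC-1 with everolimus, and 4.46, 3.90 and 4.46 in HSC-1 with DMSO. Only 2 of these 12 values, both in HSC-1 with DMSO, exceeded the array median. HSPB3, a small heat shock protein of muscle, lay between 2.80 and 3.76 on 11 arrays and at 4.57 on HSC-1 everolimus replicate 3. The read-through transcript HSPB2-C11orf52 ranged from 3.90 to 4.47 and did not pass in either line.

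**Figure D1:**
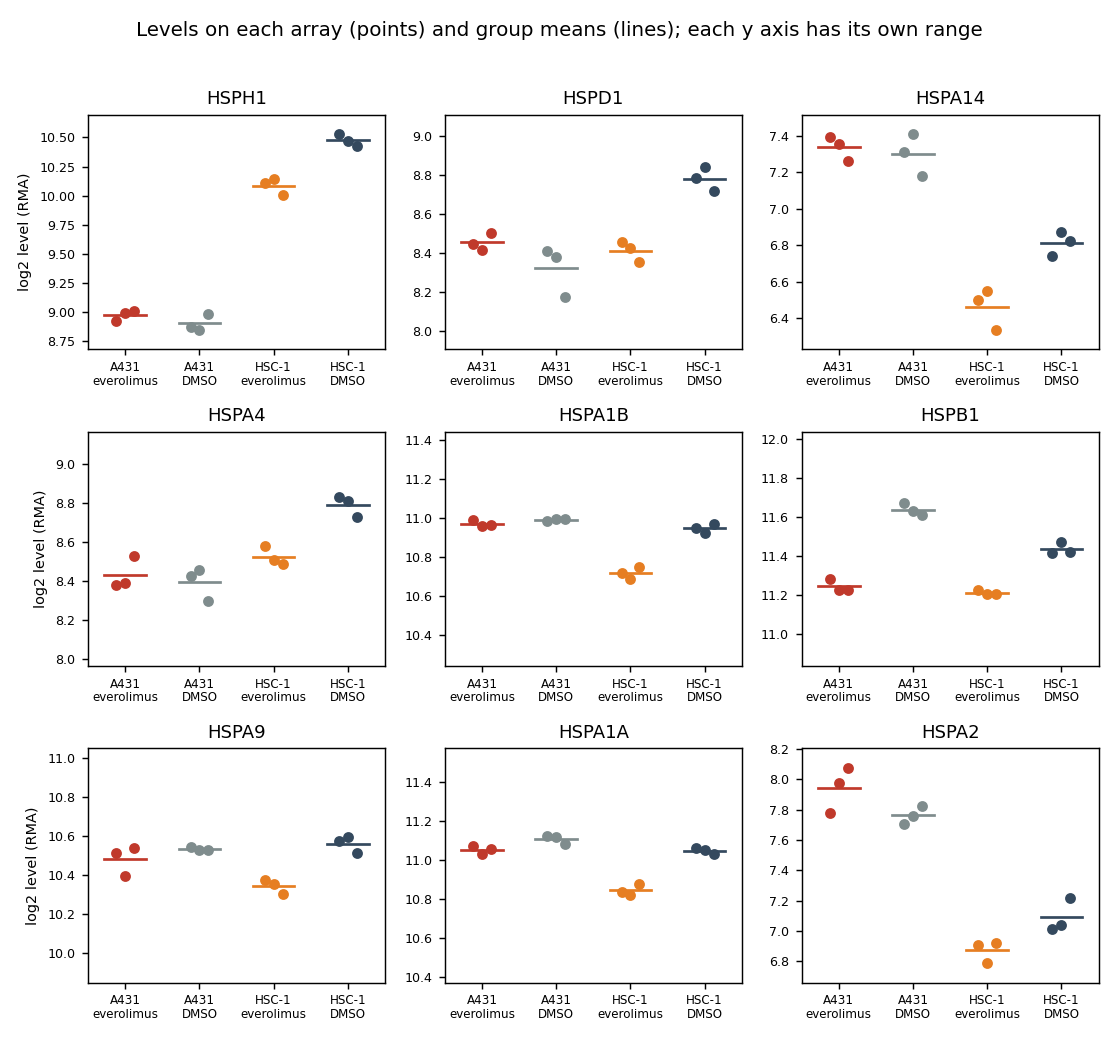
Log2 RMA level (y axis, own range in each panel) of 9 chaperone genes on each array, by group (x axis); points are arrays and lines are the means of 3. The 9 genes are those of the 15 tested whose HSC-1 everolimus arrays all lay below the DMSO arrays. Their shared HSC-1 pattern therefore follows from the choice of panels. Of all genes, 33.3% had no overlap in HSC-1, with 19.6% lower. In A431 the everolimus points lie below for HSPB1 (means of 11.24 with everolimus and 11.64 with DMSO). They also lie below, by a smaller step, for HSPA1A, and above for HSPD1.

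Everolimus had a different effect in the 2 lines for 8 of the 15 tested genes, by the test of the difference itself. The HSC-1 effect was the lower one for 7 and the higher one for 1, HSPB1. The share of 53.3% stands beside 10.5% of all genes called in this comparison, 5.69% lower and 4.84% higher. It counts HSPA1A and HSPA1B as 2 genes, though their probe sets cannot be read as separate signals. HSPD1 differed most, with an HSC-1 effect minus A431 effect of -0.50 ± 0.08 (limma adjusted p = 0.000538), followed by HSPH1 at -0.46 ± 0.07 (limma adjusted p = 0.000161). These 2 calls held under all 21 alternatives.

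The other 6 calls were less firm. HSPA2 differed by -0.39 ± 0.11, HSPA14 by -0.39 ± 0.10, HSPA4 by -0.30 ± 0.08, HSPA1B by -0.21 ± 0.04 and HSPA1A by -0.15 ± 0.04, with limma adjusted p from 0.0049 to 0.0351. For HSPB1 the difference was 0.17 ± 0.05 (limma adjusted p = 0.022), since the fall was the larger one in A431. Without the intensity trend in the variance prior all 6 were lost, at adjusted p from 0.0543 to 0.219, which left 2 calls, HSPD1 and HSPH1. HSPA1B and HSPA4 held under each of the other 20 alternatives. For HSPA9 the difference between the lines was -0.16 ± 0.06 and did not pass (limma adjusted p = 0.0682), but it passed without A431 everolimus replicate 2 (0.0173).

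Single arrays also decided some of these calls. HSPA14 missed the threshold at a limma adjusted p of 0.0657 without A431 DMSO replicate 3, 0.0607 without A431 everolimus replicate 1 and 0.061 without HSC-1 DMSO replicate 2. HSPA2 was lost without A431 DMSO replicate 1 (0.0577), A431 everolimus replicates 2 (0.0521) or 3 (0.0572), HSC-1 DMSO replicate 3 (0.0641) or HSC-1 everolimus replicate 2 (0.0628). HSPB1 was lost without A431 DMSO replicate 1 (0.0608) or HSC-1 DMSO replicates 1 (0.0614) or 3 (0.0535). HSPA1A was lost without 8 of the 12 arrays, which were all but A431 DMSO replicate 1, A431 everolimus replicates 2 and 3 and HSC-1 everolimus replicate 3, at adjusted p up to 0.0894. The count of 8 genes became 5 without HSC-1 DMSO replicate 3. Each of the 8 falls in HSC-1, in contrast, held when any single array was left out and under the other alternatives of the fit.

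**Figure D2:**
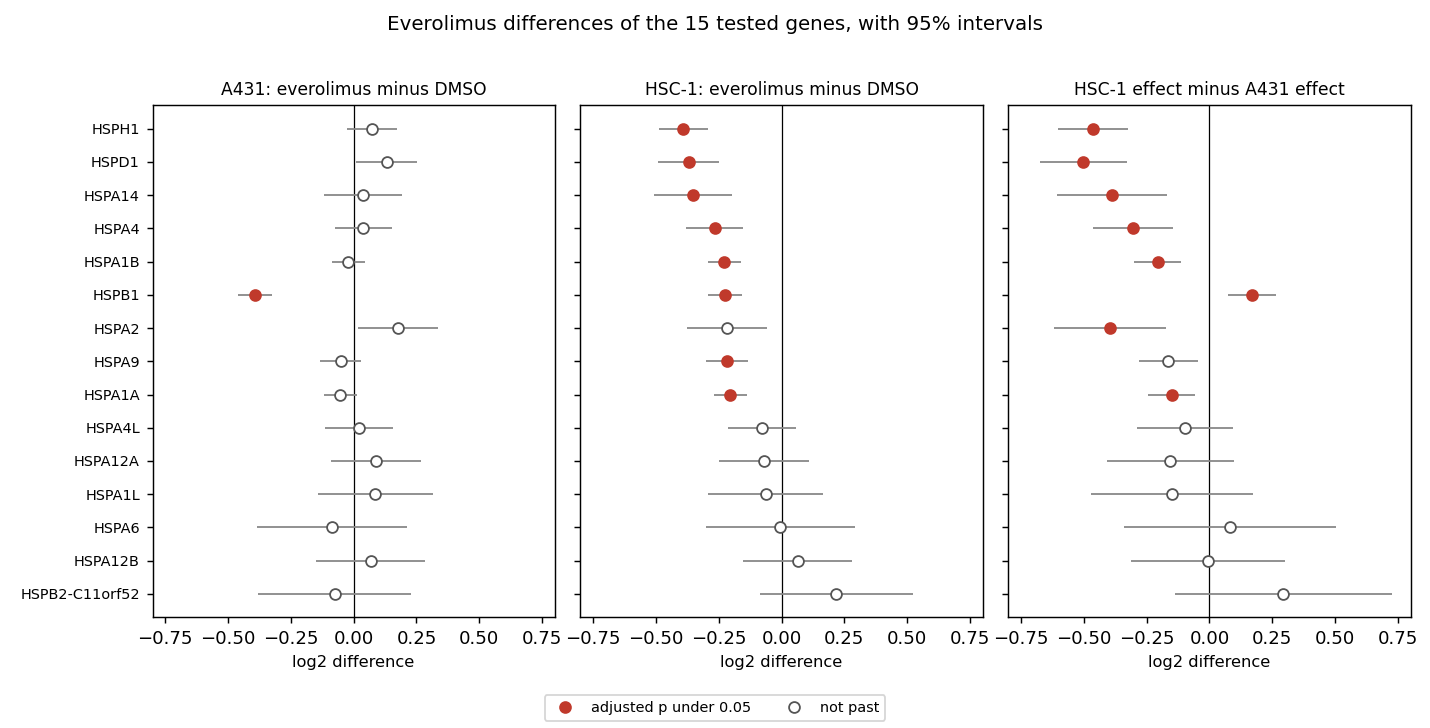
Log2 difference (x axis) of the 15 tested genes (y axis, ordered by the HSC-1 effect) for everolimus against DMSO in A431, in HSC-1, and for the effect in HSC-1 minus that in A431; bars are 95% intervals and filled points passed an adjusted p of 0.05. In HSC-1, 8 points passed, all to the left of 0, against 1 (HSPB1) in A431. Of all genes, 18.6% passed in HSC-1 and 6.73% in A431.

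The arrays themselves were also compared for overlap. In HSC-1 all 3 everolimus arrays lay below all 3 DMSO arrays for 9 of the 15 genes, the 8 falls and HSPA2, and above them for 0, a share of 60% beside 33.3% of all genes without overlap, with 19.6% of all genes lower. In A431 they lay below for 2 (HSPB1 and HSPA1A) and above for 2 (HSPD1 and HSPA12A), a share of 26.7% beside 24.5% of all genes, 13.5% lower. HSPA1A differed by -0.05 ± 0.03 and HSPA12A by 0.09 ± 0.08 in A431, both short of the threshold (limma adjusted p = 0.379 and 0.65).

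The partners of these chaperones were taken from 4 lists of co-chaperones and folding factors, of which only part had a tested probe set. The lists were chosen with earlier results of these data known, so their counts and medians are no independent support for the chaperone falls. Of 20 tested heat shock factors and co-chaperones of HSP70 and HSP90 (32 listed), 8 fell and 1 rose in HSC-1, beside 18.6% of all genes called and 11.3% lower. The 8 include TRAP1, itself an HSP90 of mitochondria, whose symbol the rule does not take (-0.23 ± 0.04, limma adjusted p = 0.000937). The median log2 difference of the list was -0.14, beside -0.02 over all genes. In A431, where 6.73% of all genes were called, limma called 0 of the 20 (2 at an unadjusted p under 0.05), with a median of -0.01. FKBP5, an immunophilin that rides on HSP90, fell by 0.52 ± 0.11 in HSC-1 (limma adjusted p = 0.00238), with levels of 5.35, 5.39 and 5.46 under everolimus, against 5.97, 6.06 and 5.72 under DMSO. BAG2, which blocks the ubiquitin ligase of the HSP70 system, fell by 0.35 ± 0.09 (limma adjusted p = 0.0138), a call lost without HSC-1 DMSO replicate 3 (0.06) or HSC-1 everolimus replicate 3 (0.0672). BAG1, a nucleotide exchange factor of HSP70, was the 1 that rose, by 0.37 ± 0.08 (limma adjusted p = 0.00294), with 6.26, 6.28 and 6.37 under everolimus, against 5.96, 5.90 and 5.96 under DMSO.

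In that list 4 of 20 genes had an effect that differed between the lines, each with the lower effect in HSC-1, beside 10.5% of all genes called and 5.69% lower. The 3 largest were FKBP5, CHORDC1 and STIP1, and the other was TRAP1 (-0.23 ± 0.06, limma adjusted p = 0.0178). FKBP5 differed by -0.58 ± 0.16 (limma adjusted p = 0.0226), CHORDC1, an HSP90 co-chaperone, by -0.40 ± 0.12 (0.0487), and STIP1, which hands clients from HSP70 to HSP90, by -0.30 ± 0.08 (0.0182). In A431, FKBP5 levels were 4.88, 4.93 and 4.92 with everolimus, against 4.99, 4.91 and 4.69 with DMSO. They lay closer to the array medians than in HSC-1, which limits what a fall there could show. STIP1 levels in HSC-1 were 7.20, 7.17 and 7.32 with everolimus, against 7.57, 7.57 and 7.55 with DMSO, while in A431 they were 7.39, 7.40 and 7.48 with everolimus, against 7.47, 7.47 and 7.43 with DMSO. Of the fits that left out 1 array, STIP1 missed the threshold without HSC-1 everolimus replicate 2 (0.0538). FKBP5 missed the threshold without A431 DMSO replicate 3 (0.0623) or HSC-1 DMSO replicates 1 (0.0572) or 2 (0.069), and CHORDC1 without 10 of the 12 arrays, all but A431 everolimus replicate 3 and HSC-1 everolimus replicate 2, at up to 0.116. CHORDC1 also missed it with no level filter (0.059), array weights (0.0675) or median centring (0.0609). The heat shock factor gene HSF1 did not pass in either line (-0.06 ± 0.08 in A431 and -0.12 ± 0.08 in HSC-1), and it was chosen after its values were seen.

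Of 20 tested genes for folding in the endoplasmic reticulum and for the unfolded protein response, its stress regulators included (28 listed), 15 had a negative difference in each line. Of the 20, 3 fell and 0 rose in A431, beside 6.73% of all genes called and 4.33% lower, with a median of -0.11 against -0.0038 over all genes. In HSC-1, 8 fell and 2 rose, beside 18.6% of all genes called and 11.3% lower, with a median of -0.13 against -0.02. In A431 the kinase gene EIF2AK3, a sensor of unfolded proteins, fell by 0.36 ± 0.08 (limma adjusted p = 0.0138), the lectin chaperone CALR by 0.23 ± 0.04 (0.000488) and HYOU1, the HSP70 relative of that compartment, by 0.20 ± 0.05 (0.0108). EIF2AK3 missed the threshold without A431 DMSO replicate 1 (0.059) or A431 everolimus replicates 1 (0.0689) or 2 (0.0635). HYOU1 missed it without A431 everolimus replicate 2 (0.0556) or A431 DMSO replicate 1 (0.0642), or without the intensity trend (0.0537), and the mean of its probe sets gave a difference of -0.04 with an adjusted p of 0.813.

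In HSC-1 the largest falls of that list were those of SDF2L1, XBP1 and HYOU1. SDF2L1, a partner of the HSP70 of the endoplasmic reticulum, fell by 0.57 ± 0.11 (limma adjusted p = 0.00117), the stress transcription factor XBP1 by 0.45 ± 0.07 (0.000194) and HYOU1 by 0.42 ± 0.05 (3.32e-06). CALR, which fell in A431, also fell in HSC-1 (-0.35 ± 0.04, limma adjusted p = 2.75e-06). Its difference between the lines did not pass (-0.11 ± 0.05, limma adjusted p = 0.189). HYOU1 levels in HSC-1 were 8.38, 8.40 and 8.42 with everolimus, against 8.84, 8.81 and 8.82 with DMSO, and in A431 7.65, 7.58 and 7.65 with everolimus, against 7.88, 7.83 and 7.77 with DMSO. The HSC-1 effect was more negative than the A431 effect for XBP1 (-0.34 ± 0.10, limma adjusted p = 0.0349) and HYOU1 (-0.22 ± 0.06, 0.031), and more positive for the thiol chaperone ERP44 (0.22 ± 0.05, 0.0105). The XBP1 call was lost without 7 of the 12 arrays, all but A431 DMSO replicate 1, A431 everolimus replicate 1, HSC-1 DMSO replicate 3 and HSC-1 everolimus replicates 1 and 2, at up to 0.0923. That of HYOU1 was lost without 9, all but A431 DMSO replicate 1, A431 everolimus replicate 2 and HSC-1 everolimus replicate 3, at up to 0.0802. The ERP44 call held without each array. Without the intensity trend ERP44 (0.0834), XBP1 (0.0815) and HYOU1 (0.0882) all missed the threshold, as did XBP1 with no level filter (0.0526).

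Among 12 tested genes of mitochondrial import and quality control (17 listed), 3 fell in HSC-1 and 0 rose, beside 18.6% of all genes called and 11.3% lower. The median in HSC-1 was -0.12. In A431, where 6.73% of all genes were called, limma called 0 of the 12 (1 at an unadjusted p under 0.05). A list of 12 is too small to read either count as a result about it. CLPB, a mitochondrial disaggregase, fell by 0.43 ± 0.09 (limma adjusted p = 0.00174), TOMM40, the channel of the outer membrane, by 0.41 ± 0.05 (4.36e-06) and TIMM23, the channel of the inner membrane, by 0.18 ± 0.05 (0.0214). The TOMM40 fall became -0.12 (0.186) with the mean of its probe sets. The TIMM23 call was lost without HSC-1 DMSO replicates 1 (0.0786) or 2 (0.0704) or HSC-1 everolimus replicate 1 (0.104), and without the intensity trend (0.0988). CLPB (-0.51 ± 0.12, limma adjusted p = 0.0104) and TOMM40 (-0.44 ± 0.06, 0.000195) also differed between the lines, and CLPB kept this call under all 21 alternatives, while TOMM40 lost it with the mean of its probe sets (0.236).

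Prefoldin, which hands new actin and tubulin chains to TRiC, was represented with its partners by 10 tested genes (12 listed). Of these, 2 fell in HSC-1 and 0 rose, a share near the 18.6% of all genes called (11.3% lower), so the count is no result about the list. The median in HSC-1 was -0.14. In A431, where 6.73% of all genes were called, limma called 0 of the 10 (2 at an unadjusted p under 0.05), which is no result about the list either. PFDN1 fell by 0.38 ± 0.08 (limma adjusted p = 0.00294) and PFDN2 by 0.28 ± 0.05 (0.000288), both subunits of prefoldin. PFDN2 levels were 9.48, 9.48 and 9.34 in HSC-1 with everolimus, against 9.69, 9.74 and 9.73 with DMSO. In A431 they were 8.85, 8.75 and 8.73 with everolimus, against 8.68, 8.66 and 8.62 with DMSO, above the DMSO arrays but short of the threshold. The difference between the lines was -0.41 ± 0.07 for PFDN2 (limma adjusted p = 0.000537) and -0.43 ± 0.12 for PFDN1 (0.0247). PFDN1 missed the threshold without A431 DMSO replicate 3 (0.0696), A431 everolimus replicate 3 (0.061), HSC-1 DMSO replicate 1 (0.0606) or HSC-1 everolimus replicate 3 (0.053), and also without the intensity trend (0.0554) or with array weights (0.0517).

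**Figure D3:**
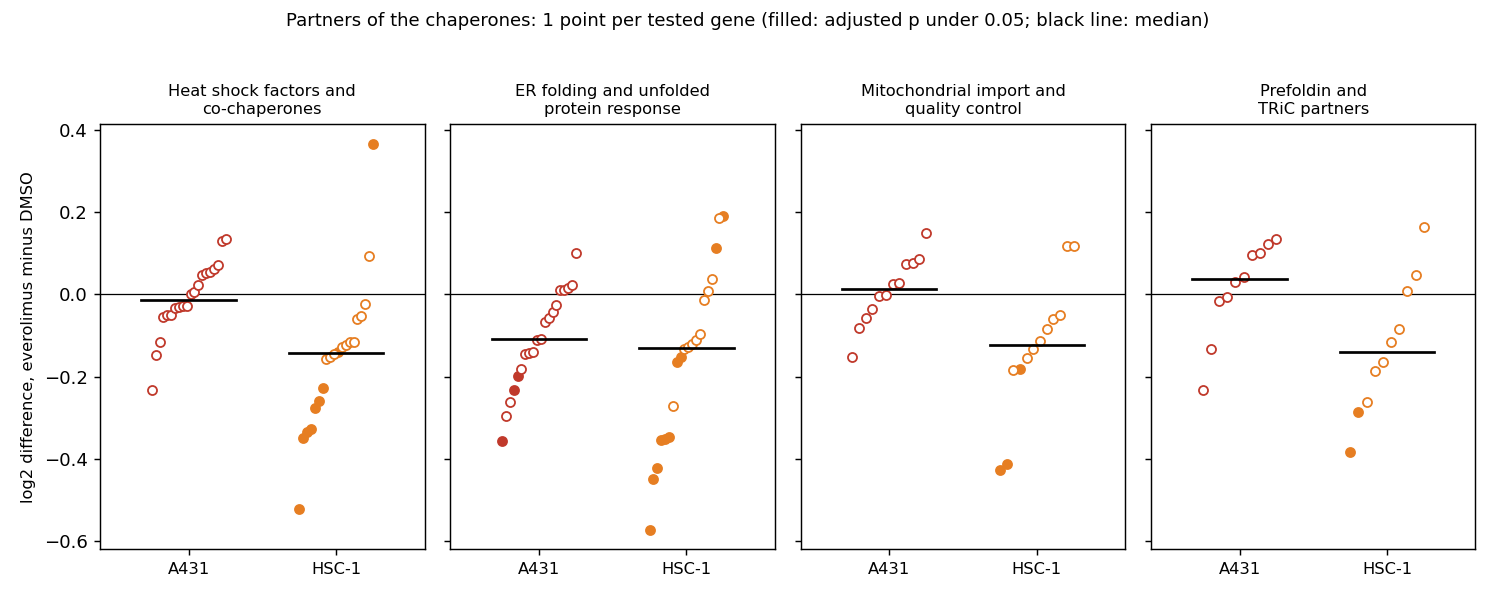
Log2 difference of everolimus against DMSO (y axis) for each tested gene of the 4 partner lists, by line (x axis); filled points passed an adjusted p of 0.05 and black lines are medians. The HSC-1 medians lie between -0.14 and -0.12 in all 4 lists, beside -0.02 over all genes. The A431 medians lie between -0.11 and 0.04, beside -0.0038 over all genes. The list for the endoplasmic reticulum has similar medians in both lines (-0.11 in A431 and -0.13 in HSC-1).

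Without drug, 9 of the 15 chaperone genes differed between HSC-1 and A431, 5 higher and 4 lower in HSC-1. The share of 60% was close to the 59.4% of all genes called in this comparison, 30.2% lower and 29.2% higher. The arrays of the lines did not overlap for 6 genes lower and 7 higher in HSC-1, a share of 86.7% beside 65.3% of all genes, 32.9% lower. Both counts of lower genes include HSPA6, which passed the level filter through A431 arrays only. Of the 13 genes above the median on all 12 arrays, 5 passed as higher and 3 as lower in HSC-1. The labels do not say which serum level each line received, so any difference in culture medium cannot be told apart from cell line here. HSPH1 and HSPA4L stood furthest apart. HSPH1 averaged 10.48 ± 0.05 in HSC-1 and 8.90 ± 0.07 in A431 with DMSO (SD, n = 3 each), 2.97-fold higher in HSC-1 (1.57 ± 0.05, limma adjusted p = 1.66e-15). HSPA4L averaged 8.69 ± 0.03 in HSC-1 and 7.18 ± 0.04 in A431, 2.85-fold higher. So the HSP110 genes were all higher in HSC-1, with HSPA4 at 0.40 ± 0.05 on the log2 scale.

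Smaller differences of the same direction were seen for HSPA12A (0.76 ± 0.09) and HSPD1 (0.46 ± 0.06). The value for HSPA12A rests on 1 of its probe sets, and the mean of both gave 0.45. HSPA2 (-0.67 ± 0.08), HSPA14 (-0.49 ± 0.07), HSPA6 (-0.49 ± 0.14) and HSPB1 (-0.20 ± 0.03) were lower in HSC-1. HSPA6 passed the level filter through 3 A431 arrays, so that its direction between the lines was favoured by the filter. HSPA1A, HSPA1B and HSPA9 had differences of -0.06 ± 0.03, -0.04 ± 0.03 and 0.03 ± 0.04, with 95% intervals inside -0.13 to 0.11.

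**Figure D4:**
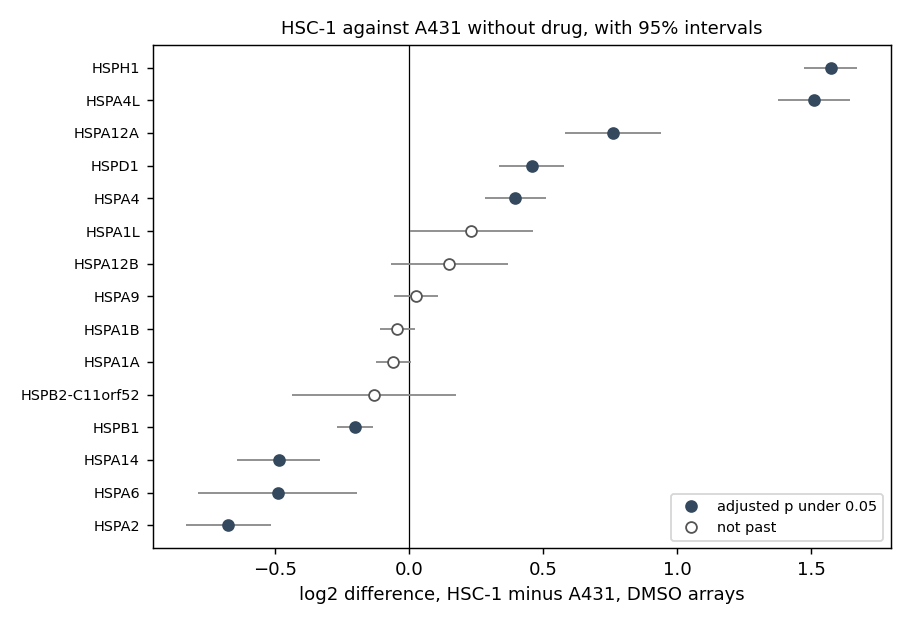
Log2 difference of HSC-1 minus A431 on the DMSO arrays (x axis) for the 15 tested genes (y axis); bars are 95% intervals and filled points passed an adjusted p of 0.05. HSPH1 (1.57) and HSPA4L (1.51) lie furthest to the right and HSPA2 (-0.67) furthest to the left.

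The levels under drug can be set beside these. With everolimus, HSPH1 averaged 10.08 ± 0.07 in HSC-1, which was still above the A431 arrays of both treatments (highest 9.01). HSPD1 averaged 8.41 ± 0.05 in HSC-1 with everolimus, within the range of the 6 A431 arrays (8.18 to 8.50), whereas the HSC-1 arrays with DMSO began at 8.72. HSPA14 and HSPA2 were lower in HSC-1 than in A431 with DMSO, and all their everolimus arrays in HSC-1 lay below the DMSO arrays. The comparison between the lines and the HSC-1 effect share the HSC-1 DMSO arrays.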

How the data were processed

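RNA of the 4 groups was measured on 12 arrays. The deposited values are log2 probe set levels. The submitters' processing notes name RMA and Affymetrix Expression Console; their versions, the level of summarisation and the build were not given in the sources used here. The annotation named 16098 of 53617 probe sets with 1 gene each, all matched by Entrez identifier to GRCh38.p14. Where a gene had several, the one with the highest mean level stood for it. Group means were fitted with lmFit and eBayes (intensity trend) in limma 3.58.1 under R 4.3.3, leaving 8 residual degrees of freedom; p-values were adjusted by Benjamini-Hochberg across 10613 genes; the threshold was 0.05. Errors are moderated SEs for differences and SDs for levels. The number of arrays limits precision, with a median SE of 0.09 for a comparison within a line and 0.13 for the difference between lines. The fit was tested on simulated data. The genes and lists were chosen with earlier results of these data known. Named genes were a panel of chaperones, per role those with the largest changes past the threshold (or the smallest p where none passed), every gene past it in the difference between the lines, and up to 3 genes per partner list and comparison. Alternatives were a replicate block, other level filters, variance priors, array weights, normalizations, a fit on 6 arrays, the mean of probe sets, stricter thresholds, leaving out each array and, added after seeing the data, HSPA1A and HSPA1B as 1 gene. Same-numbered arrays of a line did not deviate together (correlations -0.15 to 0.02), so numbers were not taken as pairs.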

Additional observations from a re-analysis of the deposited data

Results flagged for a closer look

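Differences between the everolimus effects of HSC-1 and A431, tested as the difference itself, set 8 of the 15 tested chaperone genes apart. Of all genes, 10.5% were called in this comparison. The 8 include both HSPA1A and HSPA1B, which cannot be read as separate signals. As HSC-1 effect minus A431 effect on the log2 scale they were HSPH1 at -0.46, HSPD1 at -0.50, HSPA1B at -0.21, HSPA4 at -0.30, HSPB1 at 0.17, HSPA2 at -0.39, HSPA14 at -0.39 and HSPA1A at -0.15. HSPH1 and HSPD1 kept this call under all 21 alternatives, HSPA1B and HSPA4 under 20. The others were less firm: HSPA14 kept it under 17, HSPB1 under 16, HSPA2 under 15 and HSPA1A under 10.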

How the results depend on the processing

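The 8 falls in HSC-1 and the 1 in A431 held under all 22 alternatives of the fit, with counts of 8 or 9 in HSC-1 and 1 in A431 when each array was left out; the ninth was HSPA2. With a fold threshold of 1.5 both counts were 0, as was that of the difference between the lines, and the count for HSC-1 against A431 in DMSO was 4. For the difference between the lines, the count of 8 became 2 without the intensity trend, 3 at an adjusted p of 0.01, and 5 to 8 when each array was left out. For HSC-1 against A431 in DMSO it was 9 whichever array was left out, 8 with the stricter level filter and 10 with no level filter, array weights, quantile normalization or the mean of probe sets; HSPA1L passed under the last 3 (0.0495, 0.0383 and 0.0432). With a replicate block, which the array deviations do not bear out as pairs (0 of 6 everolimus arrays correlated best with the DMSO array of its own number), the counts were 1 in A431, 9 in HSC-1 and 6 for the difference between the lines; the fixed block cannot estimate the comparison of the lines, for which a random block gave 9. With the block, HSPA1A (adjusted p = 0.115), HSPB1 (0.0679), FKBP5 (0.0546), CHORDC1 (0.09), STIP1 (0.0569), XBP1 (0.0609), HYOU1 (0.0848) and PFDN1 (0.052) missed the threshold in the difference between the lines, and TIMM23 (0.0559) missed it in HSC-1. HSPA1A also missed it with quantile normalization (0.134), and HSPA9 passed with it (0.0185) and with array weights (0.0428). Levels near or below the array median limit HSPA6, HSPB3, HSPB8 and HSPB2-C11orf52.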
